A study of Homo sapiens with 9 samples.

Results

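Reporter plasmids with nanoluciferase in the alanine (A) frame of a CAG repeat were compared with plasmids that carry it in the glutamine (Q) frame, by the bases at which RNA read ends were counted. The A set held 4 libraries and the Q set 4, which together were 8 of the 9 libraries of the series. They were chosen by the letter A or Q in the plasmid name, and no measured value entered that choice. The library of AUG-NL, a control plasmid that lacks CAG repeats, was left out.

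Each A library was paired with the Q library of the same start codon state and cell line. WTA140 and WTQ140 keep the normal coding sequence of huntingtin (HTT) before the repeat. RANA123 and RANQ123 have the start codons at positions 1 and 8 changed to UGA and AUC. The labels do not explain the number that ends each plasmid name. Since both RAN plasmids share the same number and both WT plasmids another, start codons and that number cannot be told apart. All plasmids were transfected with FuGENE HD into HEK293, a human embryonic kidney line, or HEK293T, its derivative with the SV40 large T antigen, and total RNA was sequenced. HEK293 libraries are batch 1 and HEK293T libraries batch 2, so line and batch cannot be told apart either. There was 1 library per plasmid and line, with no repeated culture, so the spread behind each p-value is that among libraries that differ in plasmid or line. The files list bases and no genes, so the identity of the lines was not checked.

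Huntingtin is the protein whose gene carries an expanded CAG repeat in Huntington's disease. In repeat-associated non-AUG (RAN) translation, ribosomes translate a repeat without an AUG start codon and in more than a single reading frame. A CAG repeat read in the HTT frame gives glutamine from CAG codons, and a shifted frame gives alanine from GCA codons. Nanoluciferase, a small luciferase, is placed behind the repeat so that its light reports translation of the frame it stands in.

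The reference genome sequence shows the start codons and the readings of the repeat that the plasmid names refer to. In GRCh38 with the GENCODE 29 annotation, HTT (ENSG00000197386.12) lies on the plus strand of chromosome 4 from 3041422 to 3243960, and its exon 1 spans 3074681 to 3075088. The 17 codons from the start codon to the repeat, at chr4:3074826-3074876, are coding sequence of exon 1, and capitals mark the ATG codons at positions 1 and 8 that the RAN plasmids lack:
HTT codons before the repeat: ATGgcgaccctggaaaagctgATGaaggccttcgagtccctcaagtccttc
The repeat follows as 19 CAG units at chr4:3074877-3074933. Its first bases, chr4:3074877-3074891, are shown in both readings, with capitals on the first codon of each frame:
repeat, glutamine frame: CAGcagcagcagcag
repeat, alanine frame: caGCAgcagcagcag
The plasmid sequences themselves were not used here, so these lines show the reference genome and not the transfected constructs.

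The values are counts of ends at bases 2 to 6566 of a reference sequence. Neither that reference nor the kind of end counted is named in the labels or headers. Base numbers from here on refer to it and not to the genome. Base 2960 held most ends in all 8 libraries and is called the top base. It lies 20 bases before a stretch of 421 bases, 2980 to 3400, in which no library had an end. The remaining ends were divided into the 200 bases before that empty stretch (top base left out), the 240 bases after it, and all other bases.

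Library totals did not follow the frame in every pair. In HEK293, RANA123 had 5328 ends and RANQ123 4087, a ratio of A to Q of 1.30. WTA140 had 3553 ends and WTQ140 8492, a ratio of 0.418. In HEK293T, RANA123 had 389 ends against 717 in RANQ123 (0.543), and WTA140 had 387 against 2308 in WTQ140 (0.168). A was thus the deeper library in 1 pair and the shallower in 3. As the labels do not state how many reads were sequenced, these totals describe depth and not the amount of RNA. With the top base left out, 324 and 204 ends remained in the A libraries RANA123 and WTA140 in HEK293, and only 19 and 16 in HEK293T. The Q libraries RANQ123 and WTQ140 kept 249 and 596 ends in HEK293 and 29 and 108 in HEK293T. Results in HEK293T therefore rest on few ends. All intervals below are exact (Clopper-Pearson) 95% binomial intervals, which cover counting error only.

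The frames shared the top base at nearly the same level. It held 93.9% of ends in RANA123 and in RANQ123 in HEK293, 94.3% in WTA140 and 93.0% in WTQ140. In HEK293T it held 95.1% in RANA123, 96.0% in RANQ123, 95.9% in WTA140 and 95.3% in WTQ140. The A and Q values overlapped. The mean was 94.8% ± 0.876 (SD, n = 4) for A and 94.5% ± 1.35 (n = 4) for Q, a difference of 0.248 percentage points with A higher in 3 of 4 pairs. The difference was 0.644 points in the HEK293 pairs alone, but -0.147 in the HEK293T pairs and -0.0944 without WTA140 or WTQ140 in HEK293. An exact two-sided permutation test, which flips the sign of the difference within each pair, gave p = 0.625. Its smallest possible p is 0.125, so no paired comparison here could pass 0.05, and paired p-values were adjusted (Benjamini-Hochberg) over 11 tests.

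Away from the top base, ends fell before and after the empty stretch in both frames. After it lay 45.7% of such ends in RANA123 (exact interval 40.2 to 51.3) and 44.2% in RANQ123 (37.9 to 50.6) in HEK293. WTA140 had 42.6% (35.8 to 49.7) and WTQ140 41.8% (37.8 to 45.9). In HEK293 the A and Q shares thus differed by less than their counting error. In HEK293T, RANA123 had 68.4% (13 of 19 ends, 43.4 to 87.4) against 41.4% in RANQ123 (12 of 29, 23.5 to 61.1). WTA140 had 56.2% there (9 of 16, 29.9 to 80.2) and WTQ140 40.7% (44 of 108, 31.4 to 50.6). The A mean was 53.2% ± 11.7 (n = 4) and the Q mean 42.0% ± 1.50 (n = 4), higher in A in 4 of 4 pairs by 11.2 points (exact permutation p = 0.125, adjusted 0.344). The HEK293 pairs alone differed by 1.19 points and the HEK293T pairs by 21.3. As a share of all ends, the same region held 2.72% ± 0.454 in A and 2.30% ± 0.606 in Q (n = 4 each, exact permutation p = 0.5), and in the HEK293 pairs alone the difference was -0.199 points.

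The region before the empty stretch held 42.9% of ends other than at the top base in RANA123, 44.2% in RANQ123, 42.2% in WTA140 and 39.1% in WTQ140 in HEK293. In HEK293T the A libraries had 26.3% (RANA123, 5 ends) and 37.5% (WTA140, 6 ends), and the Q libraries 48.3% and 51.9%. The A mean was 37.2% ± 7.65 (n = 4) and the Q mean 45.8% ± 5.49 (n = 4), lower in A in 3 of 4 pairs (exact permutation p = 0.375), with a difference of 0.894 points in the opposite direction in HEK293 alone. As a share of all ends it was 1.97% ± 0.647 in A and 2.45% ± 0.362 in Q, lower in A in 4 of 4 pairs, with A minus Q at -0.487 points (exact permutation p = 0.125, adjusted 0.344). The HEK293 pairs alone differed by -0.203 points and the HEK293T pairs, with 5 and 6 A ends there, by -0.772.

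**Figure D1:**
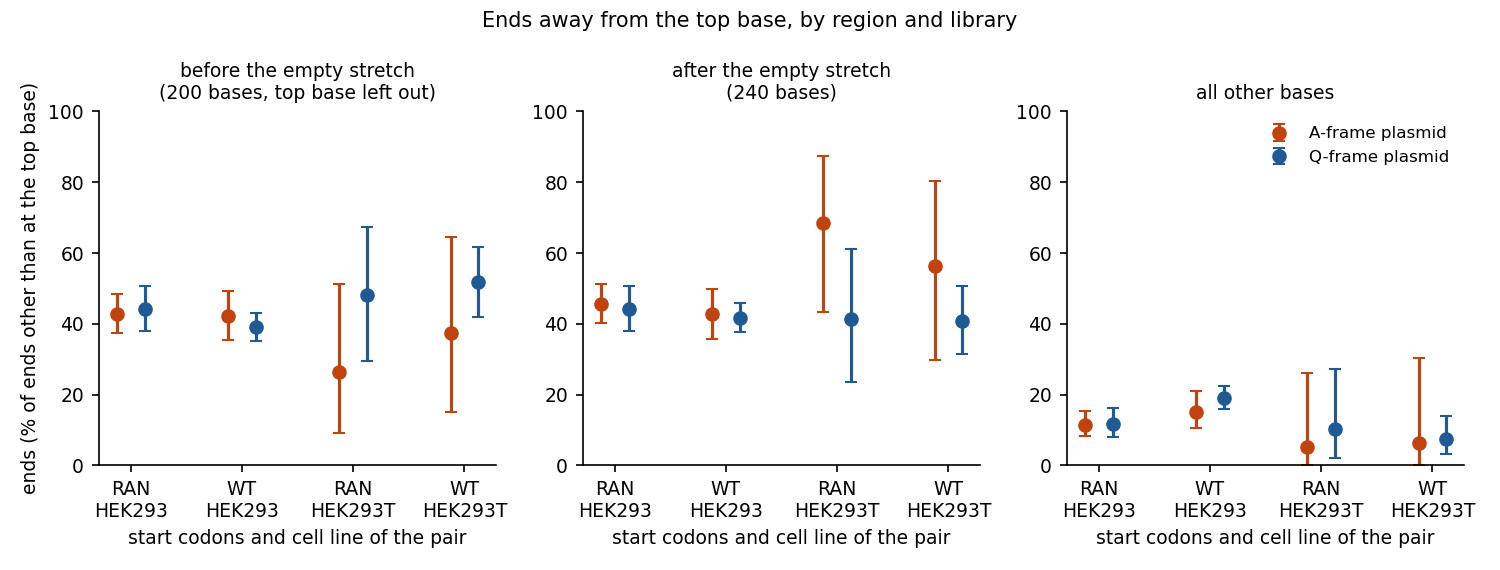
Share of ends other than those at the top base (vertical axis, %) in the 3 regions, for each A library (orange) and its paired Q library (blue), with exact 95% binomial intervals. In both HEK293 pairs the A and Q intervals overlap in each region, and the A libraries of HEK293T, with 19 and 16 such ends, have the widest intervals.

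Within the 240 bases after the empty stretch, the frames parted at base 3527, the base 127 after its end. RANA123 had 25 ends there and WTA140 13 in HEK293, and in HEK293T RANA123 had 1 and WTA140 0. All 4 Q libraries had 0. Base 3527 was picked as the base with most A ends among bases with no Q end, so the 0 in Q follows from that choice. These A counts were 16.9% (exact interval 11.2 to 23.9) of the ends in the 240 bases in RANA123 and 14.9% (8.20 to 24.2) in WTA140 in HEK293. In both of these libraries only bases 2960 and 2958 had more ends. In HEK293 the share of all ends in RANA123 was 6.39 times the share that a floor of 3 ends would make in RANQ123. In WTA140 it was 10.4 times that floor in WTQ140. These folds leave out counting error and are no lower bounds. In HEK293T both frames were at or under that floor, so no fold is given.

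The 15 bases that follow, 3528 to 3542, showed the reverse. Their limits were chosen after the counts were seen, to run up to the last base with a Q end before the next A end. The absence of A ends thus follows from these limits, and the stretch is described without a test. No A library had an end there. RANQ123 had 19 ends and WTQ140 42 in HEK293, which were 17.3% of the 110 and 16.9% of the 249 ends in the 240 bases. In HEK293T RANQ123 had 1 of 12 and WTQ140 9 of 44. All 4 Q libraries had ends in the stretch, and 13 of the 15 bases had a Q end. In HEK293 the Q share of all ends was 8.26 times the floor of 3 ends in the paired A library for RANQ123, and 5.86 times for WTQ140. These folds also leave out counting error. The HEK293T values lay under the floor. The Q ends were spread over the stretch, with 12 at base 3535, 12 at 3536, 10 at 3537, 7 at 3530 and 6 at 3538, whereas 39 A ends sat on base 3527 alone.

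Summed, base 3527 and the 15 bases after it held similar shares in both frames in HEK293. RANA123 had 16.9% of the ends of the 240 bases in these 16 bases and RANQ123 17.3%, while WTA140 had 14.9% and WTQ140 16.9%. A was the lower of the pair in 4 of 4 pairs, by -5.85 percentage points (A minus Q) on average. The HEK293 pairs alone differed by -1.15 points, less than the width of any of the exact intervals. Pooled over the libraries of a frame, the 16 bases held 15.2% of 257 A ends and 17.1% of 415 Q ends. In HEK293T RANA123 had 7.69%, RANQ123 8.33%, WTA140 0 and WTQ140 20.5%. In HEK293 the frames thus differed in where the counted ends sat within the 16 bases, which were delimited by that difference. The summed shares differed by less than their counting error. All libraries were counted on the same base numbers, and the plasmid sequences were not compared. Whether A and Q plasmids have the same sequence at these bases was not tested. A difference in plasmid sequence and a difference in RNA ends therefore cannot be told apart here.

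**Figure D2:**
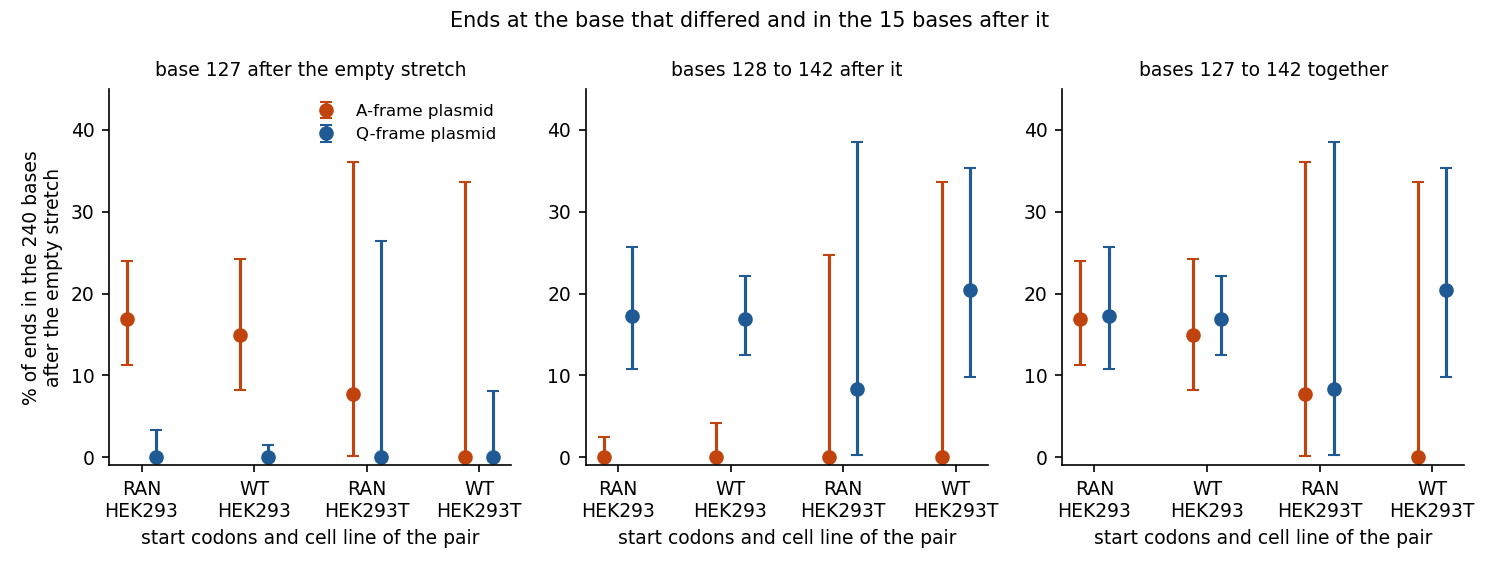
Share of the ends in the 240 bases after the empty stretch (vertical axis, %) at base 3527 (left), at bases 3528 to 3542 (middle) and at both together (right), for each A library (orange) and its paired Q library (blue), with exact 95% binomial intervals. In HEK293 the left panel shows A at 16.9% and 14.9% with Q at 0, the middle panel Q at 17.3% and 16.9% with A at 0, and the right panel overlapping intervals.

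On both sides of this site, the RAN and WT pairs of HEK293 differed in opposite directions. Upstream, bases 3401 to 3526 held 50.0% of the ends of the 240 bases in RANA123, 37.3% in RANQ123, 35.6% in WTA140 and 45.8% in WTQ140. Downstream, bases 3543 to 3640 held 33.1%, 45.5%, 49.4% and 37.3% in the same order. Upstream A was higher in the RAN pair and lower in the WT pair, and downstream the order was turned around. The 3 parts make up the 240 bases and the site's shares were similar, so the downstream order follows from the upstream order. The exact intervals overlapped within each pair. Upstream they were 41.7 to 58.3 in RANA123 and 28.2 to 47.0 in RANQ123, and 25.6 to 46.6 in WTA140 and 39.5 to 52.2 in WTQ140. Averaged over the HEK293 pairs, A minus Q was 1.29 points upstream and -0.135 points downstream. Over all 4 pairs the upstream mean was 33.8% ± 16.4 in A and 42.4% ± 6.63 in Q (n = 4 each), with A lower in 3 of 4 pairs. The downstream mean was 56.3% ± 23.5 in A and 41.9% ± 3.42 in Q (n = 4 each), with A higher in 3 of 4 pairs. In HEK293T the upstream bases had 5 of 13 ends in RANA123 and 1 of 9 in WTA140, against 6 of 12 in RANQ123 and 16 of 44 in WTQ140. The downstream bases there had 7 of 13 ends in RANA123 and 8 of 9 in WTA140, against 5 of 12 in RANQ123 and 19 of 44 in WTQ140. Pooled over libraries, which weights the deeper HEK293 libraries most, bases 3401 to 3526 held 43.2% of A ends and 42.7% of Q ends, and bases 3543 to 3640 held 41.6% and 40.2%. Before the site, 111 A ends fell on 46 bases and 177 Q ends on 66, and these numbers of bases were not adjusted for depth. The first A end after the site was at base 3543.

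**Figure D3:**
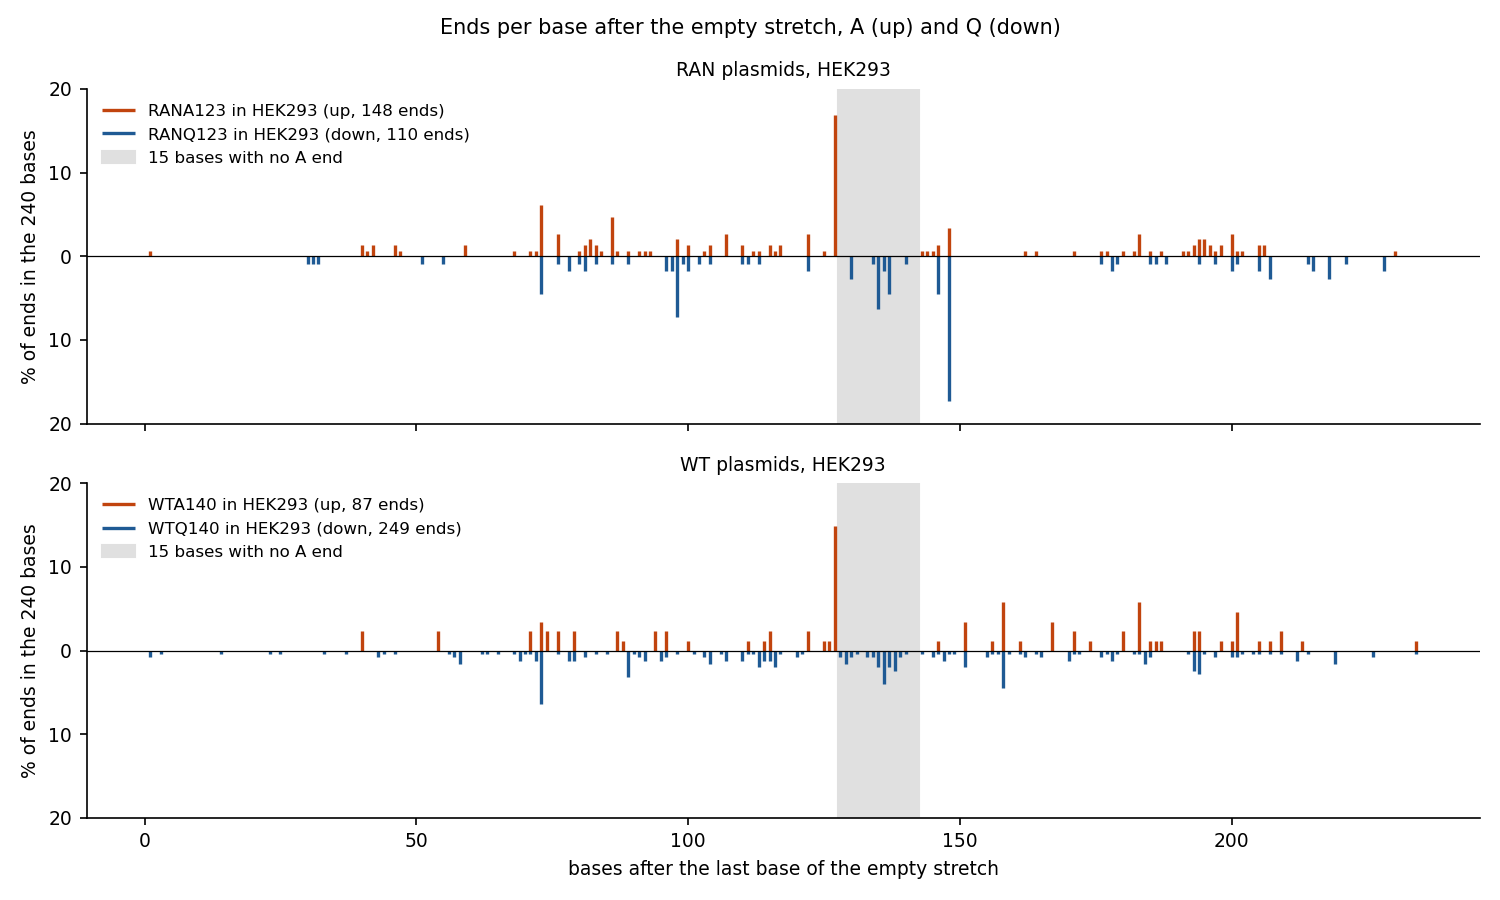
Ends at each base as a share of the ends in the 240 bases (vertical axis, %, A drawn upward and Q downward) against the distance from the last base of the empty stretch, for the RAN pair (top) and the WT pair (bottom) in HEK293. The tallest A line stands at 127 bases in both pairs, just before the grey band of 15 bases. Only Q lines appear in the band, by the choice of its limits.

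The counts per base were tested with edgeR's quasi-likelihood test, with start codon state and cell line as additive terms and each library scaled to its total. Only 4 bases had at least 10 ends in at least 2 libraries, and edgeR called 1 of them (25% of those tested), base 3527, higher in A with a Benjamini-Hochberg adjusted p = 0.000451. Base 3527 met that filter only through the A libraries, where it was high, so the filtered p-value and the 25% are not independent support for a difference. Its fitted log2 fold change of 6.44 depends on the prior count, since Q was at 0, and is no bound. Bases 2958, 2959 and 2960 had log2 fold changes of 0.00, 0.16 and 0.01 and unadjusted p-values of 0.653 or more. With no filter, 382 bases were tested and the same 1 was called (0.262%). edgeR rested the filtered p-value on 16 degrees of freedom and the unfiltered one on 1528. It pools the spread over bases of the same libraries, while the model itself leaves 4. DESeq2, run without its usual pooling of the spread over bases, called 0 bases. It gave an adjusted p = 0.311 for base 3527 and 0 bases at an unadjusted p under 0.05.

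The call rested on the HEK293 A libraries. Without RANA123 or without WTA140 in HEK293 fewer than 2 libraries had 10 ends at base 3527, and edgeR did not test it. With no filter, edgeR still called it without RANA123 in HEK293 (adjusted p = 0.00215) but not without WTA140 in HEK293 (adjusted p = 0.0595). In the 4 HEK293 libraries alone, with 1 residual degree of freedom, the edgeR adjusted p was 0.201. Its share of all ends was higher in A in 3 of 4 pairs, with a tie in the other, and the exact permutation test gave p = 0.25. Of the 12 bases where some library had 10 ends or more, 0 passed that test after adjustment, with 0 at an unadjusted p under 0.05, which 4 pairs cannot reach.

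In consecutive windows of 10 bases, edgeR called 1 of 10 tested windows (10%), bases 3532 to 3541, lower in A. This window had 0 ends in every A library, 16 in RANQ123 and 33 in WTQ140 in HEK293, and 0 and 6 in HEK293T. It passed the filter only through the 2 Q libraries of HEK293, where it was high, so its filtered p-value is not independent support either. Its fitted log2 fold change was -6.53, again no bound, with a Benjamini-Hochberg adjusted p = 0.00105. The window before it, bases 3522 to 3531, which includes base 3527, had 30 and 17 ends in RANA123 and WTA140 and 5 and 9 in RANQ123 and WTQ140 in HEK293. edgeR gave it a log2 fold change of 1.79 and an adjusted p = 0.0816. With library totals counted without the top base, edgeR called both windows (20% of 10), bases 3522 to 3531 at an adjusted p = 0.0226. With DESeq2 only bases 3522 to 3531 were called (adjusted p = 0.000103), and bases 3532 to 3541 had an adjusted p = 0.466. With no filter, edgeR called 1 of 136 windows (0.735%), again 3532 to 3541. The edgeR window tests rested on 40 pooled degrees of freedom with the filter and 544 without it.

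The window calls followed where the windows began. Windows that start 5 bases later join base 3527 with the bases after it. edgeR then called 0 of 11 windows, with a log2 fold change of 0.28 for bases 3527 to 3536 (adjusted p = 0.826) and -1.64 for bases 3537 to 3546 (adjusted p = 0.753). In windows of 30 bases it called 0 of 8, and bases 3512 to 3541 had a log2 fold change of -0.12 (adjusted p = 0.938). Neither setting had a window at an unadjusted p under 0.05, and DESeq2 was not run on them. Leaving out either RANQ123 or WTQ140 in HEK293 took bases 3532 to 3541 below the count filter, and edgeR then called 0 windows.

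**Figure D4:**
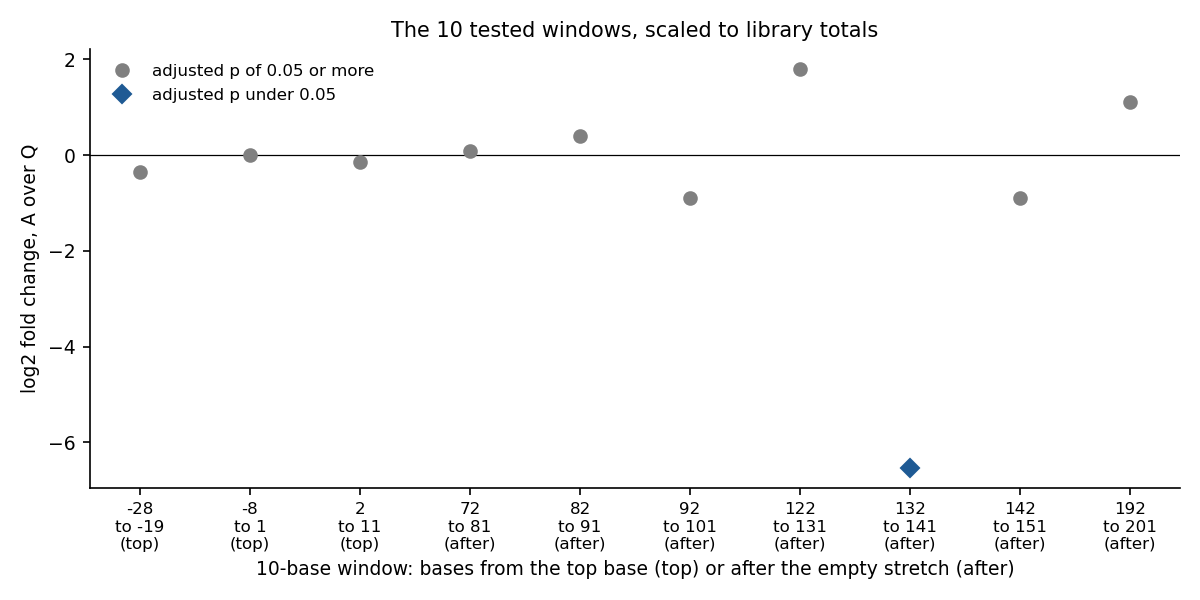
Fitted log2 fold change of A over Q (vertical axis) for the 10 windows of 10 bases that passed the count filter, named by distance from the top base or from the end of the empty stretch. The single called window, bases 3532 to 3541, lies at -6.53, a value that depends on the prior count because all A libraries were at 0, and the other 9 lie between -0.90 and 1.79.

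The difference between frames was also tested for dependence on start codons and on cell line. edgeR called 0 of 10 windows for the interaction of frame with start codon state and 0 of 10 for that with cell line, with 0 windows at an unadjusted p under 0.05 in either test. For bases 3522 to 3531 the interaction with start codons had a log2 value of 0.23 (adjusted p = 0.96), with 30 and 5 ends in the RAN pair and 17 and 9 in the WT pair of HEK293. Bases 3482 to 3491 had the lowest unadjusted edgeR p of that test, 0.0884, with 16 ends in RANA123 against 3 in RANQ123 and 3 in WTA140 against 13 in WTQ140. With 1 library per plasmid and line these tests had little to rest on, and a p above the threshold does not show that RAN and WT pairs behaved alike.

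Next to the top base, the bases with most ends were the same in both frames. Base 2958, 2 bases before the top, had 26 ends in RANA123, 28 in WTA140, 29 in RANQ123 and 41 in WTQ140 in HEK293, and 2, 2, 4 and 17 in HEK293T. It held 11.2% ± 2.49 of A ends other than at the top base and 12.0% ± 3.81 of such Q ends (n = 4 each, exact permutation p = 0.75). Base 2959 had 15 ends in RANA123, 11 in WTA140, 6 in RANQ123 and 32 in WTQ140 in HEK293. Its mean was 4.07% ± 2.79 in A and 3.96% ± 1.30 in Q (n = 4 each, exact permutation p = 0.875). Bases 2958, 2960 and 2961 were the only 3 with an end in all 8 libraries.

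Past the top base, bases 2961 to 2969 held 54 ends in RANA123, 29 in WTA140, 30 in RANQ123 and 85 in WTQ140 in HEK293. These were 38.8%, 33.7%, 27.3% and 36.5% of the ends in the 200 bases before the empty stretch, and A and Q values overlapped. Pooled over libraries, they were 37.3% of A ends there and 36.8% of Q ends. Ends were few in the next 10 bases, 2970 to 2979, with 4 in A and 11 in Q. Bases 2780 to 2950 held 19.1% of A ends and 20.8% of Q ends of this region.

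**Figure D5:**
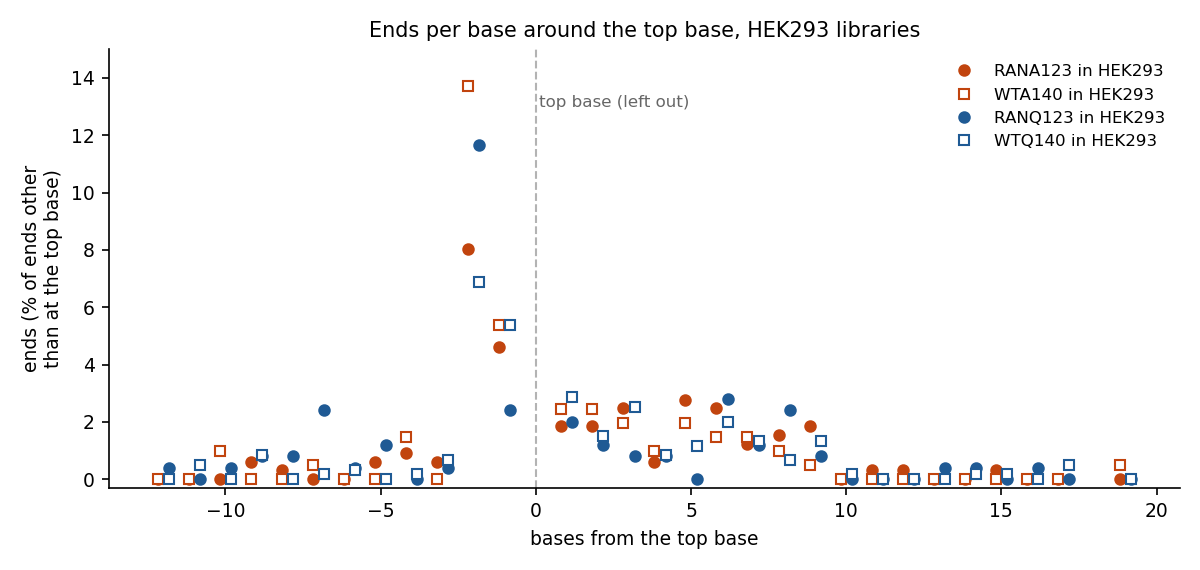
Share of ends other than at the top base (vertical axis, %) at each base from 12 before to 19 after the top base, for the 2 A libraries (orange) and 2 Q libraries (blue) of HEK293. Base 2958, at -2, is the highest in each library and has A and Q values interleaved, and few ends lie beyond 9 bases after the top base.

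Of the 382 bases with an end in any library, 110 had ends in both frames, which were 57.9% of the 190 A bases and 36.4% of the 302 Q bases. Ends at bases found only in A numbered 157 of 9657, and those only in Q 372 of 15604. Among the 26 bases with at least 5 A ends, base 3527 was the 1 (3.85%) with no Q end. Among the 42 bases with at least 5 Q ends, 8 (19%) had no A end, of which 6 lay in bases 3528 to 3542. Base 3478 had 5 Q ends and base 3578 had 6. The Q libraries had more ends in all, so more Q bases could reach 5. Thinned to 16 ends away from the top base, A libraries covered 13.9 ± 0.242 bases and Q libraries 13.2 ± 1.20 (n = 4 each, exact permutation p = 0.375). At 16 ends most ends stand on a base of their own, which leaves this measure little range. Thinned within each pair to its smaller library instead, A minus Q was -5.86 bases on average, though A was higher in 3 of 4 pairs. The exception was the WT pair in HEK293, with 85 bases in WTA140 and 121 in WTQ140.

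Bases 2932, 3548 and 3558 had nearly all their ends in plasmids of a single start codon state, with A and Q libraries of that state both holding ends. Base 2932 had 10 ends in RANA123 and 9 in RANQ123 in HEK293, against 0 in WTA140 and 1 in WTQ140. It had 0 ends in HEK293T. Base 3548 had 19 ends in RANQ123 and 5 in RANA123 in HEK293, and 1 and 0 in WTQ140 and WTA140. In HEK293T it had 4 in RANQ123, 1 in RANA123 and 0 in both WT libraries. Its share of all ends was lower in A in 3 of 4 pairs (0.0877% ± 0.121 in A, 0.259% ± 0.294 in Q, n = 4 each), with an exact permutation p = 0.25. Base 3558 had ends in WT libraries only, 11 in WTQ140 and 5 in WTA140 in HEK293 and 1 and 2 in HEK293T (exact permutation p = 0.5 for the frame). Base 3473 had ends in all 4 HEK293 libraries, 9 in RANA123, 3 in WTA140, 5 in RANQ123 and 16 in WTQ140. The difference between RAN and WT libraries was not tested at these bases.

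Because the plasmids differ in reading frame, ends in the 240 bases were also sorted by base number modulo 3. This remainder follows the numbering of the files and names no codon position. Remainder 0 took 32.8% ± 9.83 of A ends and 37.8% ± 3.05 of Q ends, remainder 1 took 26.0% ± 7.35 and 23.3% ± 9.11, and remainder 2 took 41.2% and 38.9% (n = 4 each). In HEK293 remainder 2, that of base 3527, held 45.3% in RANA123, 37.3% in RANQ123, 40.2% in WTA140 and 34.9% in WTQ140. The exact permutation p-values were 0.375, 0.625 and 0.75 for remainders 0, 1 and 2. Without base 3527 and the 20 bases after it, A minus Q for remainder 2 turned to -4.27 points.

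Far from the empty stretch, ends were sparse in both frames. The A libraries had 70 such ends on 51 bases and the Q libraries 154 on 93 bases. In HEK293 they were 0.694% of all ends in RANA123, 0.710% in RANQ123, 0.873% in WTA140 and 1.34% in WTQ140. HEK293T had 1 such end in each A library, 3 in RANQ123 and 8 in WTQ140. The mean share of all ends was 0.521% ± 0.312 in A and 0.704% ± 0.453 in Q (n = 4 each). It was lower in A in 4 of 4 pairs (exact permutation p = 0.125, adjusted 0.344). As log2 shares with 0.5 ends added, A was lower in only 3 of 4 pairs (exact permutation p = 0.375). Apart from the WT pair in HEK293, A and Q of a pair lay within each other's exact intervals. Base 5361 had the most of these ends, with 4 in RANQ123, 5 in WTQ140 and 3 in RANA123 in HEK293.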

How the data were processed

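Total RNA was extracted with RNeasy columns and on-column DNase I, and an outside service prepared the libraries, per the labels' protocols. The authors deposited raw counts of ends per base, and the file headers name only base and ends. Tools named in the submitters' processing notes are SAMtools, STAR and cutadapt 4.9, and the build named is hg38, in no stated role. The labels do not give the reference sequence, the selection of reads or the treatment of mates and duplicates, each of which could move or remove ends.

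Counts were tested with edgeR 4.0.16 (quasi-likelihood, library totals without TMM factors, at least 10 ends in at least 2 libraries, adjusted p under 0.05 by Benjamini and Hochberg; R 4.3.3), and with DESeq2 1.42.0 as an alternative. The DESeq2 fits took the spread of each base or window alone, with no trend or shrinkage, and size factors from the tested features. Shares were compared by two-sided exact sign-flip permutation over 4 pairs (Python 3.11.15). Simulated counts were used to check the edgeR script. Totals ran from 387 to 8492 ends, and a count of 0 was read against a floor of 3 ends. AUG-NL, with 0 ends at every base, was not used in any test.

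The comparison, the regions, the tests and the rule for named bases were chosen with earlier results of these data known. That rule took the 5 bases with most ends per library, called bases and windows, bases with at least 5 ends in 1 frame and 0 in the other, and bases with an end in all 8 libraries. Base 5361, bases 3482 to 3491 and the stretches within regions were named after their values were seen. Alternatives were TMM scaling, totals without the top base, other filters and windows, a pair block, each library left out and single cell lines.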

Additional observations from a re-analysis of the deposited data

Results flagged for a closer look

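In the 240 bases after the empty stretch, the share of ends at base numbers with remainder 1 modulo 3 moved in opposite directions in the RAN and WT pairs. A minus Q was -3.86 percentage points on average in the RAN pairs, with RANA123 lower in both cell lines, and 9.24 points in the WT pairs, with WTA140 higher in both. In HEK293 the shares were 17.6% (RANA123), 22.7% (RANQ123), 33.3% (WTA140) and 25.7% (WTQ140). In HEK293T they rested on 4 of 13, 4 of 12, 2 of 9 and 5 of 44 ends in the same order. The difference between RAN and WT pairs was not tested. The same check was made on the paired results for regions, stretches, remainders and covered bases, between start codon states and between cell lines. No other result was flagged, and with 4 pairs signs can split this way by chance. In 46 sets of 4 libraries, 0 had a library that stood apart by Dixon's criterion. Chance gives about 1 in 20 for a single set, but these sets hold overlapping shares of the same libraries and are not independent. Base 3527 in Q and bases 3528 to 3542 in A were 0 in every library and could not be flagged.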

How the results depend on the processing

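A total of 305 values were recomputed, and 264 were labelled the same. For paired differences this required the same sign only, and for counts of calls an equal number. For the named base and windows it required the same sign and side of the threshold. An equal number can hide a change: DESeq2 also called 1 window, but it was bases 3522 to 3531, higher in A. edgeR called 1 base, but 0 with DESeq2 and 0 in HEK293 alone. Leaving out a library gave 0 to 1 called bases, 0 without RANA123 or WTA140 in HEK293, where base 3527 no longer met the count filter. With no filter, edgeR called it without RANA123 in HEK293 (adjusted p = 0.00215) and called 0 bases without WTA140 in HEK293 (adjusted p = 0.0595). For 10-base windows, 1 was called, against 2 with TMM scaling, 2 with totals without the top base, 0 in HEK293 alone, 0 in windows from base 7, 0 in windows of 30 bases, and 0 to 2 with a library left out. With no filter and a library left out, an alternative chosen after seeing the data, window calls were 0 without RANQ123, RANA123 or WTA140 in HEK293. Base 3527 was called in 18 of 21 settings that tested it (edgeR or DESeq2 adjusted p 1.79e-09 to 0.311, log2 fold change 5.34 to 7.43). Bases 3532 to 3541 were called in 16 of 21 and bases 3522 to 3531 in 4 of 21, with the same sign throughout. These settings refit the same libraries, and some were chosen after seeing the data. Settings in which the feature failed the count filter, or windows began elsewhere or were wider, are not among them. Base 3527 had no Q end and bases 3532 to 3541 no A end, so their signs could not turn. The counts of settings are thus not independent support. With the pair as a block, edgeR still called base 3527 (adjusted p = 0.000409) and bases 3532 to 3541 (adjusted p = 0.00232), and the block changed no other call. Each library was the only replicate of its plasmid and line, so replicate numbers pair nothing. No fit of HEK293T alone was possible with edgeR, as fewer than 2 features passed the filter.

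Among paired differences (A minus Q, percentage points), these changed sign. The share at the top base was -0.147 in HEK293T and ran from -0.0944, without WTA140 or WTQ140 in HEK293, to 0.611. In HEK293 alone, the region after the empty stretch was -0.199 of all ends, the region before it 0.894 of other ends, bases 3401 to 3526 1.29 and bases 3543 to 3640 -0.135 of the 240 bases. Remainder 1 ran from -0.0311 to 5.31 and remainder 2 from -1.13 to 8.70 with a library left out. Remainder 2 was -4.27 without base 3527 and the 20 bases after it. The number of bases with an end differed by -5.86 on average when thinned within each pair, though A was higher in 3 of 4 pairs. None of these could reach 0.05 by the exact permutation test, and the cause of each change was not tested. Depth limited HEK293T most: 3 ends were 0.775% of WTA140 and 0.130% of WTQ140 there, so differences at single bases were not detectable.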
